A study of Mus musculus with 9 samples.

Results

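The 9 genes described here encode receptors, transcription factors and an enzyme by which macrophages are recognised: Csf1r, Csf2ra, Adgre1, Spi1, Cebpa, Cebpb, Maf, Irf8 and Lyz2. They were chosen by symbol, each matched to 1 Ensembl identifier, and make up 9 of the 34866 genes in the deposited tables. RNA sequencing was done on mouse primary macrophages in culture, in 3 groups of 3 biological replicates. One group had 7 days of standard oxygen. For acute hypoxia, cells from standard oxygen were given 1% oxygen during 3 hours, and for chronic hypoxia the whole 7 days were at 1% oxygen. The medium of all groups was alpha-MEM to which serum, antibiotic and L929-conditioned medium (10%) had been added. L929 is a fibroblast line that secretes the growth factor CSF1, so the ligand of Csf1r was supplied to every culture. The strain, sex, age and tissue of origin of the cells are not given in the sources used here.

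CSF1 receptor signalling keeps macrophages alive and drives their differentiation, and the GM-CSF receptor takes up the related signal of GM-CSF. Inside the cell PU.1 (encoded by Spi1) and the C/EBP factors bind together at the regulatory regions of macrophage genes, while MAF and IRF8 restrict proliferation and alternative fates. F4/80 (Adgre1) and lysozyme (Lyz2) are among the most used markers of mature mouse macrophages.

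Levels are in TPM, which gives the length-corrected share of each gene in a library whose values sum to 1000000, so that levels of different genes may be compared. Sequencing depth is unknown, because TPM keeps no record of it, and the spread over 3 replicates is the measure of error (SD, n = 3 throughout). Groups were compared with limma on log2(TPM + 1), with Benjamini-Hochberg adjustment over all genes tested and a threshold of 0.05, and every adjusted p below is of this kind. Each description in the labels ends in 1 of 3 codes that recur in every group and are called X, Y and Z here, and their meaning is not stated. X marks replicate 1 of all groups. Y marks standard oxygen replicate 3 and replicate 2 of both hypoxia groups, and Z marks standard oxygen replicate 2 and replicate 3 of both hypoxia groups. The code Z libraries stood apart: within a group the median absolute log2 difference per gene was 0.125 to 0.141 between X and Y and 0.238 to 0.306 between Z and either of them. Values are therefore given by code, and each test is given from the fit of the group alone (unblocked) and, where the call differs, from the fit that also takes the code as a block (code-blocked).

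Many but not all markers of macrophages were present in all 9 libraries. Cd68, a lysosomal glycoprotein, was at 964 to 1529 TPM and Mpeg1, a pore-forming protein of macrophages, at 1042.8 to 2009.8 TPM. Of 36 macrophage core genes 3 were under 1 TPM in every library, Timd4 and Clec4f (both at 0) and Vsig4 (at most 0.12), which mark resident macrophages of some tissues. The code Z libraries were low in further ones, with Mertk, a receptor for dying cells, at 2.21 to 3.37 TPM against 21.8 to 33.3 elsewhere. The mannose receptor gene Mrc1 was at 0.247 to 0.697 TPM in code Z against 2.08 to 39.0 elsewhere, and Cd163, a scavenger receptor, at 0 against 0.225 to 1.27. Other core genes were higher in code Z, such as Cx3cr1 at 49.1 to 116 TPM against 3.74 to 14.7. These marker genes, and those named by code further on, were chosen after their values were seen. Of 12 T, B and NK cell markers 11 were under 1 TPM in all libraries, as were all 8 mast cell and basophil markers and 8 of 10 fibroblast markers. Of 16 dendritic cell markers 12 were under 1 TPM throughout, and the list summed to 20.3 to 55.2 TPM. In bulk RNA, fewer cells of a type and less RNA per cell cannot be told apart.

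In standard oxygen Lyz2 was the highest of the 9 genes with 62868 ± 4390.4 TPM, 6.29% ± 0.439 of the library. It ranked first or second among all genes in each library. A middle tier held Adgre1 (542 ± 48.1 TPM), Cebpb (483 ± 77.0) and Csf1r (470 ± 38.7), whose replicates overlapped from neighbour to neighbour. Csf2ra (296 ± 46.8 TPM) and Spi1 (245 ± 36.6) overlapped each other and lay below that tier without overlap. Irf8 (62.1 ± 11.7 TPM), Cebpa (49.4 ± 1.37) and Maf (45.7 ± 16.7) formed the lowest tier, again with overlap between neighbours. In chronic hypoxia the order differed: Csf1r (699 ± 106 TPM) stood second without overlap with Adgre1 (413 ± 140), and Cebpa (31.2 ± 3.35) was last.

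**Figure D1:**
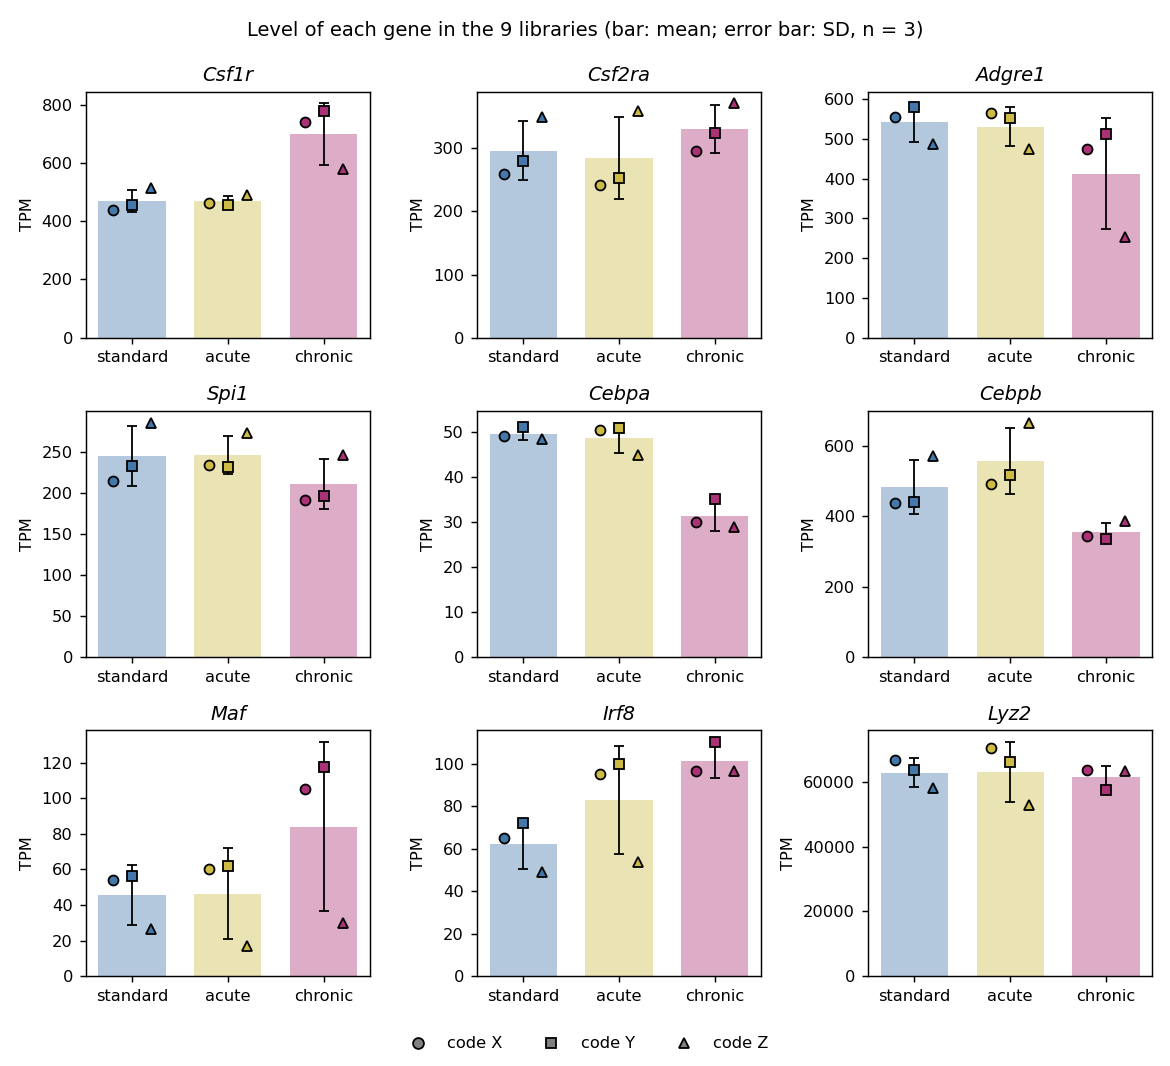
Level in TPM of each of the 9 genes (vertical axes, linear from 0) in standard oxygen, acute hypoxia and chronic hypoxia; symbols are single libraries, their shape gives the code, bars are means and error bars SD (n = 3). Csf1r is higher and Cebpa lower in all 3 chronic hypoxia libraries than in the other 6, and the triangles of code Z are apart from the other symbols for Maf.

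RefSeq promoter sequences (GRCm38.p6) were at hand for 5 of the 9 genes, Csf2ra, Cebpa, Cebpb, Irf8 and Lyz2, and not for Csf1r, Adgre1, Spi1 and Maf. All 5 are shown: Csf2ra and Lyz2 are known targets of PU.1 and C/EBP factors, Cebpa and Cebpb were lower in chronic hypoxia than in standard oxygen, and Irf8 was higher. Each is the 250 bases before the start annotated in RefSeq, 5′ to 3′ on the strand of the gene. The gene spans given further on are from GENCODE, and there Csf2ra and Lyz2 start further upstream, at 61228429 and 117282321. The last bases of these windows therefore lie inside the GENCODE spans of Csf2ra and Lyz2. Csf2ra is at chr19:61228419-61228668, minus strand, Lyz2 at chr10:117282273-117282522, minus strand, Cebpa at chr7:35119043-35119292, plus strand, Cebpb at chr2:167688665-167688914, plus strand, and Irf8 (the first of 2 entries) at chr8:120736108-120736357, plus strand. Capitals mark matches on either strand to a PU.1 core (GAGGAA), to a C/EBP pattern (TTNNGNAA, N being any base) or to the core of the hypoxia response element (ACGTG or GCGTG).
Csf2ra: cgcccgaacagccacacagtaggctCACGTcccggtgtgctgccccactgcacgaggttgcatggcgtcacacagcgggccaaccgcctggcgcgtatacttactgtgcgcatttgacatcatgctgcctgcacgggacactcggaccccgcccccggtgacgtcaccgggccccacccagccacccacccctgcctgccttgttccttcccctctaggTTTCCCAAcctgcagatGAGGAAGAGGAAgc
Lyz2: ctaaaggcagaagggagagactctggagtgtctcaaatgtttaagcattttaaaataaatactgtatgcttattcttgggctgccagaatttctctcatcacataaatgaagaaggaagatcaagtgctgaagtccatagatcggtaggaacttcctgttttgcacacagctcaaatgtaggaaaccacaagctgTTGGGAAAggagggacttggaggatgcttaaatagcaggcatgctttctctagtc
Cebpa: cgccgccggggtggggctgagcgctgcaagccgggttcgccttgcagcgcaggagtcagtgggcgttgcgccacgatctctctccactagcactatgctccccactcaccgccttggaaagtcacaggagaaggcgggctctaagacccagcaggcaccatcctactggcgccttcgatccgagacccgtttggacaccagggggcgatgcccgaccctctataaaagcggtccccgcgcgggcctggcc
Cebpb: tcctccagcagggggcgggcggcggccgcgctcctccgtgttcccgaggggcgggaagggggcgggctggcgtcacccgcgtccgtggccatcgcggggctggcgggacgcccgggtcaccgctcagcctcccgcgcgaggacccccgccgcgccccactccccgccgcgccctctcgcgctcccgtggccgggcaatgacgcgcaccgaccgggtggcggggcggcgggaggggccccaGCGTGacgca
Irf8: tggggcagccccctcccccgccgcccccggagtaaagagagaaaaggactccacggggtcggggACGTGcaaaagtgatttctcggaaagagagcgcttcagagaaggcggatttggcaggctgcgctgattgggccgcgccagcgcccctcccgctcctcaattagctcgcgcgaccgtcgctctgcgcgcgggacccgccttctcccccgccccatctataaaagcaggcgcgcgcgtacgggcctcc
Counted back from the start, the Csf2ra window holds the PU.1 core side by side at -14 to -9 and -8 to -3, the C/EBP pattern at -31 to -24 and the hypoxia core at -225 to -221. That of Lyz2 holds the C/EBP pattern at -55 to -48, that of Cebpb the hypoxia core at -10 to -6, that of Irf8 the hypoxia core at -186 to -182, and that of Cebpa none of the 3. Among 32851 windows of the same length 23.3% hold the PU.1 core, 36.8% the C/EBP pattern and 38.6% the hypoxia core, so a match to any one is common. A match is a description of letters and not a bound site.

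Among the receptors, Csf1r was higher in chronic hypoxia than in both other groups. Csf1r encodes the receptor for CSF1 and IL-34 (ENSMUSG00000024621). It measured 439, 457 and 513 TPM in standard oxygen (codes X, Y and Z), 464, 457 and 490 in acute hypoxia and 741, 778 and 579 in chronic hypoxia. All 3 chronic libraries lay above the other 6, and the code Z library was the lowest of the chronic group. Chronic hypoxia exceeded standard oxygen by 0.56 ± 0.144 (log2, SE; 95% interval 0.22 to 0.91), with a limma adjusted p of 0.0933 unblocked and 0.0541 code-blocked. The direction was the same in 3 of 3 codes, with log2 differences of 0.755, 0.767 and 0.173 for X, Y and Z. With all libraries kept, Csf1r thus passed in neither fit against standard oxygen. Leaving out chronic replicate 3, the code Z library and the lowest of its group, gave 0.70 and an unblocked limma adjusted p of 0.0323. Dropping the lowest library of the higher group widens the difference by itself, so no conclusion is drawn from that fit. Against acute hypoxia the difference was 0.56 ± 0.137 (log2, SE), with a limma adjusted p of 0.103 unblocked and 0.0385 code-blocked, so that of these 2 fits Csf1r rose from acute to chronic hypoxia only in the second. Rescaling by the median of ratios, which removes the shift of the typical gene, took the code-blocked adjusted p to 0.095 and the difference to 0.40. Hmgxb3, whose exons overlap those of Csf1r on the opposite strand, measured 5.70 to 8.51 TPM.

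Csf2ra, the ligand-binding chain of the GM-CSF receptor (ENSMUSG00000059326, chr19:61223957-61228429 in GRCm38, the build of all gene positions given), overlapped between the oxygen groups. Its values were 260, 280 and 349 TPM in standard oxygen, 243, 253 and 360 in acute hypoxia and 296, 325 and 372 in chronic hypoxia. In every group the code Z library was the highest, and the 3 groups overlapped. Chronic hypoxia differed from standard oxygen by 0.16 ± 0.148 (log2, SE; 95% interval -0.19 to 0.52; limma adjusted p 0.55), which became -0.02 after rescaling.

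Adgre1 encodes F4/80, an adhesion G protein-coupled receptor of mature macrophages (ENSMUSG00000004730, chr17:57358691-57483527). It was 555, 581 and 488 TPM in standard oxygen, 565, 553 and 476 in acute hypoxia and 474, 512 and 253 in chronic hypoxia. The code Z library of chronic hypoxia was the lowest of the 9, and the groups overlapped. The difference of chronic hypoxia from standard oxygen was -0.45 ± 0.271 (log2, SE), with a limma adjusted p of 0.367 unblocked and 0.125 code-blocked. Within codes it was -0.229 for X, -0.182 for Y and -0.948 for Z, so that code Z gave the widest difference.

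Of the transcription factors, the C/EBP genes were lower in chronic hypoxia and Irf8 was higher, while the groups overlapped for Spi1 and Maf. Cebpa encodes C/EBPα, which is needed for commitment to the myeloid lineage (ENSMUSG00000034957, chr7:35119293-35121928). Its values were 49.0, 50.9 and 48.3 TPM in standard oxygen, 50.3, 50.8 and 44.7 in acute hypoxia and 29.8, 35.0 and 28.7 in chronic hypoxia. All 3 chronic libraries lay below the other 6, and no code stood apart. Cebpa fell by 0.65 on the log2 scale from standard oxygen to chronic hypoxia (SE 0.108; 95% interval -0.91 to -0.39), which is 0.637 times the standard level. The limma adjusted p of Cebpa was 0.0391 unblocked, 0.0138 code-blocked and 0.178 if blocked by title number. The call was lost on leaving out chronic replicate 1 or 2 or standard oxygen replicate 1 or 3 (limma adjusted p 0.125 to 0.179), with log2 differences of -0.73 to -0.60 over the 6 libraries left out in turn. From acute to chronic hypoxia Cebpa fell in the code-blocked fit, by 0.63 on the log2 scale (limma adjusted p 0.0143, and 0.0654 unblocked). Gm45091, which overlaps its exon on the opposite strand, was not analysed here.

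Cebpb encodes C/EBPβ, which acts in mature macrophages and in their inflammatory response (ENSMUSG00000056501, chr2:167688915-167690418). It measured 437, 440 and 572 TPM in standard oxygen, 493, 518 and 667 in acute hypoxia and 344, 335 and 386 in chronic hypoxia. The chronic libraries lay below all others, and code Z was the highest in each group. In the code-blocked fit Cebpb fell from standard oxygen to chronic hypoxia by 0.44 on the log2 scale (SE 0.0739, limma adjusted p 0.025), where the unblocked adjusted p was 0.136. From acute to chronic hypoxia it fell by 0.64 on the log2 scale, with a limma adjusted p of 0.0136 code-blocked and 0.0894 unblocked. In acute hypoxia each library exceeded the standard oxygen library of its code, by 0.171 to 0.234 (log2), and the limma adjusted p was 0.969 unblocked and 0.187 code-blocked. Tmem189, which overlaps Cebpb on the opposite strand, measured 139 to 293 TPM, and as no source gives the strand setting of the counting, reads from the shared stretch cannot be assigned.

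Irf8, an interferon regulatory factor that favours monocyte and macrophage over granulocyte fates (ENSMUSG00000041515, chr8:120736358-120756694), was 65.0, 72.0 and 49.3 TPM in standard oxygen, 95.3, 99.7 and 53.8 in acute hypoxia and 96.7, 110 and 96.4 in chronic hypoxia. Chronic and standard oxygen libraries did not overlap. Acute hypoxia was split, with X and Y near the chronic level and Z near the standard level. Chronic hypoxia exceeded standard oxygen by 0.71 ± 0.157 (log2, SE; 95% interval 0.33 to 1.08), with a limma adjusted p of 0.07 unblocked, and Irf8 rose in the code-blocked fit (0.0185). Acute hypoxia exceeded standard oxygen by 0.545, 0.464 and 0.124 (log2) in codes X, Y and Z, with a limma adjusted p of 0.943 unblocked and 0.232 code-blocked. Without the code Z libraries the acute difference was 0.50 with a limma adjusted p of 0.0413, in a fit of 4 libraries.

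Maf encodes c-MAF, a factor of differentiated and anti-inflammatory macrophages (ENSMUSG00000055435, chr8:115682942-115707794). It was 54.3, 56.4 and 26.4 TPM in standard oxygen, 60.5, 61.8 and 16.9 in acute hypoxia and 105, 117 and 29.8 in chronic hypoxia. The 3 code Z libraries lay below the other 6, which began at 54.3 TPM. From acute to chronic hypoxia Maf rose in the code-blocked fit, by 0.83 (log2; SE 0.0731, limma adjusted p 0.00969) and by 0.782 to 0.914 within codes. The unblocked fit gave the same difference an SE of 0.679 and an adjusted p of 0.528. Against standard oxygen the chronic difference was 0.939 and 1.04 (log2) in X and Y and 0.165 in Z, with a limma adjusted p of 0.488 unblocked and 0.0613 code-blocked. Gm15655, which overlaps exons of Maf on the opposite strand, was not analysed here.

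Spi1 encodes PU.1, the master regulator of the myeloid lineage (ENSMUSG00000002111, chr2:91082390-91115756). Its values were 215, 233 and 286 TPM in standard oxygen, 235, 232 and 273 in acute hypoxia and 191, 196 and 246 in chronic hypoxia. Groups overlapped, with code Z the highest in each. Chronic hypoxia was lower in 3 of 3 codes, by -0.248 to -0.167 (log2), and the difference of -0.21 ± 0.153 (SE) had a limma adjusted p of 0.457 unblocked and 0.0739 code-blocked. Code-blocked and rescaled it was -0.39 (limma adjusted p 0.0275), so that its call depended on the scaling.

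Lyz2, the lysozyme that macrophages secrete against bacteria (ENSMUSG00000069516, chr10:117277331-117282321), was 66844, 63603 and 58156 TPM in standard oxygen, 70403, 66082 and 52793 in acute hypoxia and 63690, 57631 and 63361 in chronic hypoxia. The groups overlapped, and the lowest library was the code Z one of acute hypoxia. Chronic hypoxia differed from standard oxygen by -0.03 ± 0.186 (log2, SE; 95% interval -0.48 to 0.42; limma adjusted p 0.943), a direction that turned under quantile normalization (0.287). In the longest transcript of Lyz2, 5.96% of windows of 75 bases (the read length) are also found in Lyz1, its close copy, which measured 41.3 to 440 TPM, so Lyz2 is uncertain to that extent. The other 8 genes shared no such stretch with another listed gene.

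**Figure D2:**
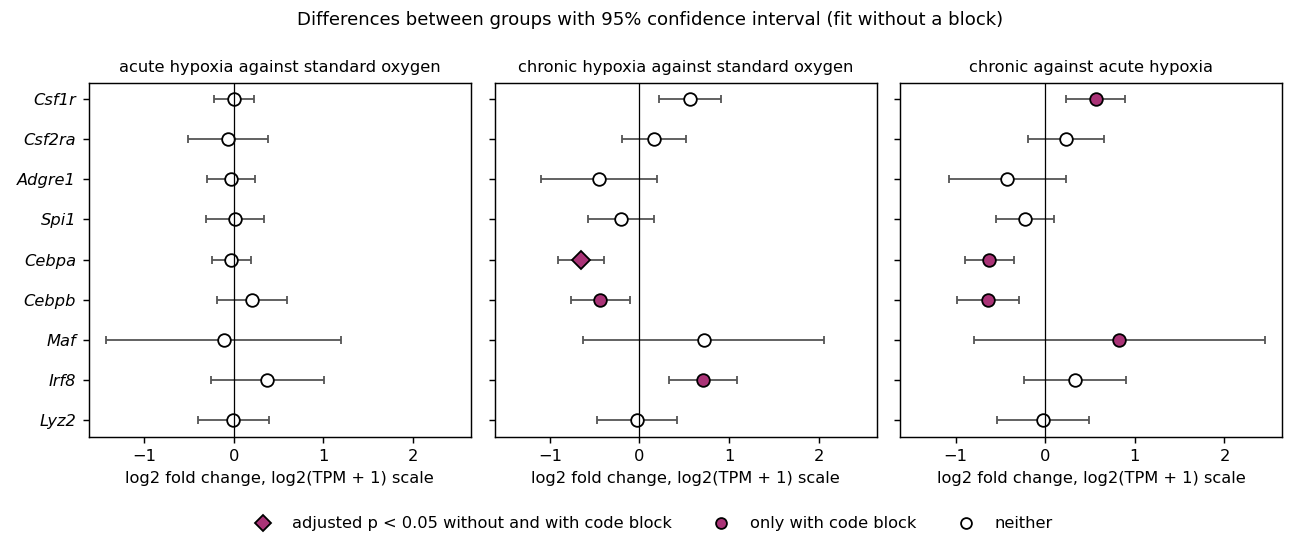
Difference in log2(TPM + 1) between groups (horizontal axes) for each gene, with 95% confidence intervals from the unblocked fit; a filled diamond marks an adjusted p under 0.05 in both fits, a filled circle in the code-blocked fit only, and an open symbol in neither. No symbol of the acute comparison is filled, and Cebpa is the one diamond, at -0.65 in chronic hypoxia against standard oxygen.

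The study concerned how macrophages adapt to limited oxygen. In chronic hypoxia against standard oxygen 1 of the 9 genes passed unblocked (Cebpa, lower), where 2.69% of all genes tested did, 2.1% higher and 0.596% lower. Code-blocked, 3 passed (Irf8 higher, Cebpa and Cebpb lower), where 18.4% of all genes did, 15.1% higher and 3.3% lower. If blocked by title number, 0 passed (4 had an unadjusted p under 0.05 in the unblocked fit), where 0.00904% of all genes did, the 1 gene being higher (0.00904%).

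In acute hypoxia against standard oxygen 0 of the 9 passed in limma unblocked, code-blocked or blocked by title number, and 0 had an unadjusted p under 0.05 unblocked. Of all genes 0.0273% passed unblocked (0.0182% higher, 0.0091% lower), 0.71% code-blocked (0.655% higher, 0.0546% lower) and 0% with the title number. The unblocked 95% intervals of the 9 genes, not adjusted for the number of genes tested, reached 0.218 to 1.31 (log2) to either side of the difference. The unblocked fit therefore could not resolve smaller changes. In the code-blocked fit the SE was 0.0497 (Cebpb) to 0.174 (Maf).

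Between acute and chronic hypoxia 0 of the 9 passed in limma unblocked, where 0.695% of all genes did (0.55% higher, 0.144% lower), and 3 of the 9 had an unadjusted p under 0.05. Code-blocked, 4 passed (Csf1r and Maf higher, Cebpa and Cebpb lower), where 15.5% of all genes did, 12.1% higher and 3.42% lower. Code and title number give the same pairs in that comparison. These 3 comparisons share samples in pairs and are not independent of each other. Chronic hypoxia did not overlap standard oxygen for 4 of the 9 genes (Csf1r and Irf8 higher, Cebpa and Cebpb lower), where 29.6% of all genes did not. Between chronic and acute hypoxia 3 did not overlap (Csf1r higher, Cebpa and Cebpb lower), where 27.8% of all genes did not, and between acute hypoxia and standard oxygen 0, where 12.5% did not.

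The median absolute log2 difference of the 9 genes was 0.03 in acute hypoxia, where that of all genes tested was 0.12. In chronic hypoxia against standard oxygen it was 0.45 beside 0.24, and between chronic and acute hypoxia 0.42 beside 0.22. The typical gene was itself higher by 0.16 (log2) in chronic hypoxia than in standard oxygen. Taken relative to that shift, Cebpa was at -0.81, Adgre1 at -0.61, Cebpb at -0.60, Spi1 at -0.37, Csf1r at 0.40, Irf8 at 0.55 and Maf at 0.55. Without the 3 code Z libraries all 9 genes passed code-blocked in chronic hypoxia against standard oxygen (4 higher, 5 lower), where 35% of all genes did, in a fit of 4 libraries with 1 residual degree of freedom per gene. In the same kind of fit 7 passed between acute and chronic hypoxia, where 25.1% of all genes did, and in acute hypoxia Irf8 alone, where 3.02% did.

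**Figure D3:**
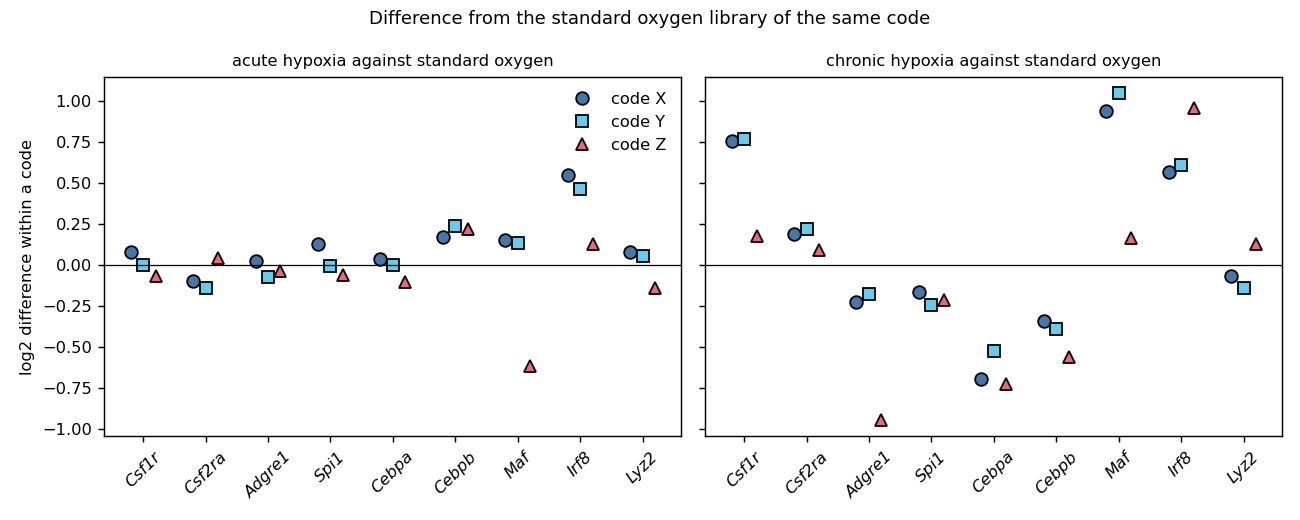
Log2 difference of the acute (left) and chronic (right) hypoxia library from the standard oxygen library of the same code (vertical axis), for each gene; symbols give the code. In chronic hypoxia 8 of the 9 genes have the same sign in all 3 codes, where 59.5% of all genes do, and Lyz2 has the opposite sign in code Z. Code Z is furthest from X and Y for Maf, Adgre1, Csf1r and Irf8 (Irf8 at 0.954 in Z against 0.566 and 0.606).

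How far the genes differed between codes was tested over all 9 libraries with oxygen group and code in 1 fit. The code term passed for 4 of the 9 genes (limma F test, Benjamini-Hochberg adjusted p), where 24.3% of all genes tested passed. Maf was lower in code Z by -1.57 ± 0.15 (log2 of Z minus the mean of X and Y, SE; adjusted p 0.00204). Csf2ra was higher by 0.39 ± 0.0627 (0.0124), Spi1 by 0.31 ± 0.0524 (0.016) and Cebpb by 0.32 ± 0.0598 (0.0217). The typical gene was higher by 0.14 in code Z. After rescaling Csf2ra (0.24, limma adjusted p 0.0724), Spi1 (0.15, 0.147) and Cebpb (0.17, 0.172) no longer passed. Cebpa (-0.28, 0.0361), Adgre1 (-0.62, 0.0427) and Irf8 (-0.62, 0.0326) then did, and Maf passed either way. Cebpb also lost its call on leaving out any 1 library but chronic replicate 1 or 3 (adjusted p 0.0539 to 0.0691), and Spi1 on leaving out chronic replicate 1 (0.0561).

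Oxygen group held 92.5% of the variation of Cebpa over the 9 libraries, 82.2% of that of Csf1r and 73.7% of that of Cebpb. Code held 76.7% for Maf, 73.9% for Csf2ra and 64.3% for Spi1. For Irf8 the shares were 53.4% for oxygen and 33.1% for code, and for Lyz2 oxygen held 1.20%. Code exceeded oxygen in 5 of the 9 genes and in 48% of all genes.

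**Figure D4:**
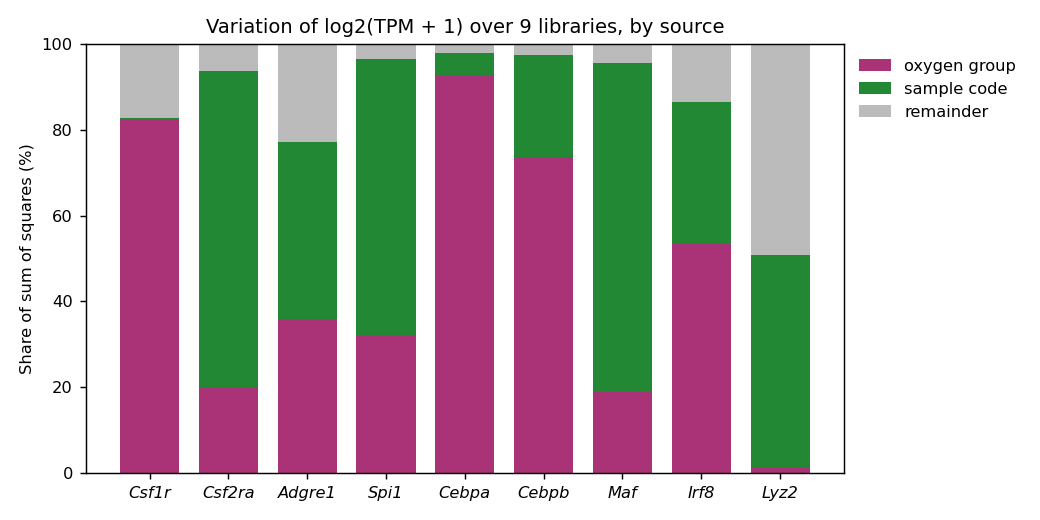
Share of the sum of squares of log2(TPM + 1) over 9 libraries (vertical axis, %) that falls to oxygen group, sample code and the remainder, for each gene. Cebpa and Csf1r are mostly oxygen (92.5% and 82.2%), and Maf, Csf2ra and Spi1 mostly code (76.7%, 73.9% and 64.3%).

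In the CSF receptor system the code term passed for 4 of 6 genes tested, and among other myeloid transcription factors for 4 of 29, a lower share than the 24.3% of all genes. The following were chosen after their values were seen. Cebpe, a C/EBP factor of granulocyte maturation, was 30.6 to 36.1 TPM in code Z and 0.732 to 1.92 TPM in X and Y. Il3ra, the IL-3 receptor chain, was 15.8 to 23.0 TPM in code Z and 48.7 to 76.1 elsewhere, and Csf2rb, the shared signalling chain of the GM-CSF receptor, was 106 to 126 TPM in code Z and 71.6 to 91.0 elsewhere.

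Markers of other myeloid cells moved with the code. Beside the counts that follow, 24.3% of all genes tested passed the code term. Of 7 monocyte markers tested 6 passed the code term, 5 higher in code Z, among them Ly6c2 at 194 to 969 TPM in code Z and 42.6 to 78.8 elsewhere (7.41% of its windows also occur in Ly6c1). The other that passed, F13a1, was lower in code Z, by -1.34 (log2, limma F test adjusted p 0.0005). The 12 monocyte markers summed to 3146 to 5912 TPM in code Z and 1523 to 4467 elsewhere. Of 5 neutrophil and granulocyte precursor markers tested 3 passed, all higher in code Z, and that list of 14 summed to 3452 to 3631 TPM in code Z and 1877 to 2604 elsewhere. Most of that sum was S100a8 and Mmp9. S100a8 was at 582 to 1906 TPM in code Z and 258 to 1023 elsewhere, and Mmp9 at 1685 to 2781 and 866 to 2271. Of the 14, 7 were under 1 TPM in every library, among them Mpo, Elane and Ly6g. Prtn3, a granule protease of the same precursors, was at 1.01 to 4.18 TPM in code Z and at most 0.752 elsewhere. Camp, a granule peptide, was at 1.44 to 2.03 TPM in code Z and at most 1.86 elsewhere. Ngp, another gene of the list, went the other way, by -1.21 (log2, limma F test adjusted p 0.0989). In standard oxygen and acute hypoxia Ngp was at 0.221 to 0.368 TPM in code Z and 3.27 to 3.81 elsewhere. In chronic hypoxia it was at most 0.208 TPM. Of 32 macrophage core genes tested 21 passed the code term, 16 lower in code Z, such as Cd63 (0.295 to 1.65 TPM against 83.6 to 144) and C1qa (0.91 to 3.41 against 65.3 to 443). The other 5, Cx3cr1, Lyz1, Siglec1, Ptprc and Cybb, were higher in code Z, by 0.26 (Cybb) to 2.77 (Cx3cr1) on the log2 scale. The part of these cell types in the values of Maf, Adgre1 and Irf8 was not tested.

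Markers of other cells also moved with chronic hypoxia. The 12 monocyte markers summed to 1523 to 3146 TPM in standard oxygen, 1703 to 3316 in acute hypoxia and 3814 to 5912 in chronic hypoxia, the last without overlap with the others. Of 7 tested in chronic hypoxia against standard oxygen, 1 rose unblocked and 5 rose code-blocked, where 18.4% of all genes passed. F13a1, a clotting factor subunit of monocytes, rose by 3.98 ± 0.457 (log2, SE; limma adjusted p 0.017 unblocked and 0.00054 code-blocked), from 78.2 ± 34.6 to 1217 ± 460.1 TPM. Against acute hypoxia F13a1 rose by 3.69 ± 0.510 (0.0483 unblocked). Its unblocked calls were lost without replicate 1 or 2 of chronic hypoxia, replicate 1 or 3 of standard oxygen (up to 0.103) or replicate 1 or 2 of acute hypoxia (up to 0.236). Hp, the haptoglobin gene, rose code-blocked by 1.54 ± 0.0961 against standard oxygen (limma adjusted p 0.00689, and 0.361 unblocked) and by 1.57 ± 0.0707 against acute hypoxia (0.003, and 0.345 unblocked).

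The osteoclast list summed to 1045 to 2002 TPM in standard oxygen and 2299.6 to 2877 in chronic hypoxia. Most of that sum was Mmp9, a gene also in the neutrophil list, at 981 to 1927 TPM in standard oxygen and 2228 to 2781 in chronic hypoxia. The dendritic cell list summed to 20.3 to 37.6 against 39.4 to 55.2 TPM, and the endothelial and epithelial list to 27.1 to 49.7 against 57.9 to 62.4 TPM, each without overlap. Most of the dendritic cell sum was Clec10a, at 13.9 to 27.6 TPM in standard oxygen and 29.1 to 39.2 in chronic hypoxia. Pecam1, an adhesion molecule of endothelium and of many leukocytes, rose by 1.45 ± 0.247 (log2, SE; limma adjusted p 0.0406 unblocked), a call kept only without standard oxygen replicate 2 and otherwise lost (up to 0.179). In the code-blocked fit against standard oxygen the collagenase gene Mmp8 (2.05, limma adjusted p 0.0214), the gelatinase gene Mmp9 (0.97, 0.0236), Clec10a, a lectin of dendritic cells and macrophages (0.83, 0.0236), Atp6v0d2, a proton pump subunit (0.56, 0.0262), and Pf4, a platelet chemokine (2.27, 0.0401), also rose. None of these 5 passed unblocked (0.108 to 0.663), and Atp6v0d2 (0.0755) and Pf4 (0.0569) did not pass code-blocked and rescaled. Against acute hypoxia Mmp8 (2.02), Mmp9 (1.13), Pecam1 (1.14) and Pf4 (2.51) rose code-blocked (limma adjusted p 0.0138 to 0.0189), and none of the 4 unblocked (0.0616 to 0.222). The neutrophil list overlapped between groups, with 1890.4 to 3562 TPM in standard oxygen and 2539 to 3452 in chronic hypoxia. Within it S100a8 was lower in chronic hypoxia (258 to 582 TPM) than in standard oxygen (895 to 1593), while Mmp9 was higher. The macrophage core list summed to 41725 to 54118 TPM in standard oxygen and 28701 to 46949.9 in chronic hypoxia. The part of these lists in the chronic differences of the 9 genes and of the lists that follow was not tested.

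Of 6 other genes of the CSF receptor system tested in chronic hypoxia against standard oxygen, 1 passed unblocked, Csf2rb2, the IL-3-specific receptor chain of the mouse, which went from 38.7 ± 3.35 to 60.1 ± 4.75 TPM. Its log2 difference of 0.62 ± 0.111 (SE) had a limma adjusted p of 0.0444, which was kept without chronic replicate 3 (0.0442) and lost without any other 1 library (up to 0.189). As 11.1% of its windows of 75 bases also occur elsewhere, most in Csf2rb, Csf2rb2 is uncertain. In the code-blocked fit Csf1, the ligand of the CSF1 receptor, also passed, with a log2 difference of -0.70 ± 0.158 (SE; limma adjusted p 0.0445, and 0.104 unblocked), at 3.10 ± 0.390 TPM in standard oxygen and 1.53 ± 0.273 in chronic hypoxia. Il34, the second ligand, was lower in chronic than in acute hypoxia code-blocked (-1.02 ± 0.235, limma adjusted p 0.0456; 0.403 unblocked), at 2.63 to 6.88 TPM in code Z and at most 2.47 elsewhere. In acute hypoxia 0 of 6 passed in either limma fit, with Csf2rb2 at an unadjusted p of 0.0327 unblocked. The median log2 difference of the list in chronic hypoxia against standard oxygen was 0.08, beside 0.16 for all genes.

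Of 29 other myeloid transcription factors tested in chronic hypoxia against standard oxygen, 2 rose, 2 fell and 25 did not pass unblocked, and 6 rose and 3 fell code-blocked. Code-blocked and rescaled, 1 rose and 4 fell. Pparg, a lipid-sensing nuclear receptor, went from 34.1 ± 0.412 to 14.2 ± 2.44 TPM (log2 -1.22 ± 0.136, SE; limma adjusted p 0.0146). In acute hypoxia it measured 14.7 ± 3.49 TPM. Nr1h3, which encodes the oxysterol receptor LXRα, went from 18.2 ± 2.80 to 8.68 ± 0.727 TPM (log2 -0.98 ± 0.145, limma adjusted p 0.0307), and it also fell between acute and chronic hypoxia (-1.08 ± 0.113, 0.0289). Runx1, a factor of blood cell development, rose by 0.79 ± 0.148 (log2, SE; limma adjusted p 0.0498), and Bhlhe40, a repressor induced by stress and hypoxia, by 0.78 ± 0.133 (0.0406). In acute hypoxia Bhlhe40 was the only factor of 28 to pass, and only code-blocked (1.29 ± 0.147, limma adjusted p 0.0494, against 0.232 unblocked and 0.0656 code-blocked and rescaled). Cebpd, the third C/EBP gene of macrophages, rose from 19.6 ± 1.38 TPM in acute to 41.6 ± 2.32 in chronic hypoxia (log2 1.05 ± 0.102, limma adjusted p 0.0236), the opposite direction to Cebpa and Cebpb. Against standard oxygen, Runx1 lost its unblocked call without any 1 of the 6 libraries (limma adjusted p 0.066 to 0.204). Pparg lost it without chronic replicate 2 or standard oxygen replicate 1 or 3 (up to 0.103), and Nr1h3 (up to 0.155) and Bhlhe40 (up to 0.184) without these and without chronic replicate 1. Between acute and chronic hypoxia, Nr1h3 (up to 0.199) and Cebpd (up to 0.18) lost it without replicate 1 or 2 of either group.

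Of 32 macrophage core genes tested in chronic hypoxia against standard oxygen 1 rose unblocked, and 7 rose and 6 fell code-blocked, where 18.4% of all genes passed. Code-blocked and rescaled, 4 rose and 10 fell. The one was Fcgr3, a receptor for the constant part of IgG, with a log2 difference of 1.42 ± 0.167 (SE; limma adjusted p 0.0186). Against acute hypoxia Fcgr3 rose by 1.26 ± 0.185 (0.0493), and Cd14, the co-receptor for lipopolysaccharide, fell by 0.88 on the log2 scale (SE 0.124; 0.0486). Fcgr3 shares 7.38% of its windows of 75 bases, most with Fcgr2b, and is uncertain. Fcgr3 lost its call against standard oxygen without replicate 1 or 2 of chronic hypoxia or replicate 1 or 3 of standard oxygen (up to 0.123). Its call against acute hypoxia was kept only without chronic replicate 3 and lost without any other 1 library (up to 0.238), and that of Cd14 was lost without replicate 1 or 2 of either group (up to 0.239). In the code-blocked fit against standard oxygen Lyz1 (2.09 ± 0.0722, limma adjusted p 0.00353, and 0.0774 unblocked) and C1qa, a complement subunit (1.84 ± 0.339, 0.0287, and 0.637 unblocked), also rose. As 6.22% of the windows of Lyz1 also occur elsewhere, most in Lyz2, which was at 52793 to 70403 TPM, Lyz1 is uncertain. In acute hypoxia 0 of 32 core genes passed in either limma fit. The median log2 difference over this list was 0.02 in chronic hypoxia against standard oxygen, and 0.34 over the transcription factors, beside 0.16 for all genes.

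**Figure D5:**
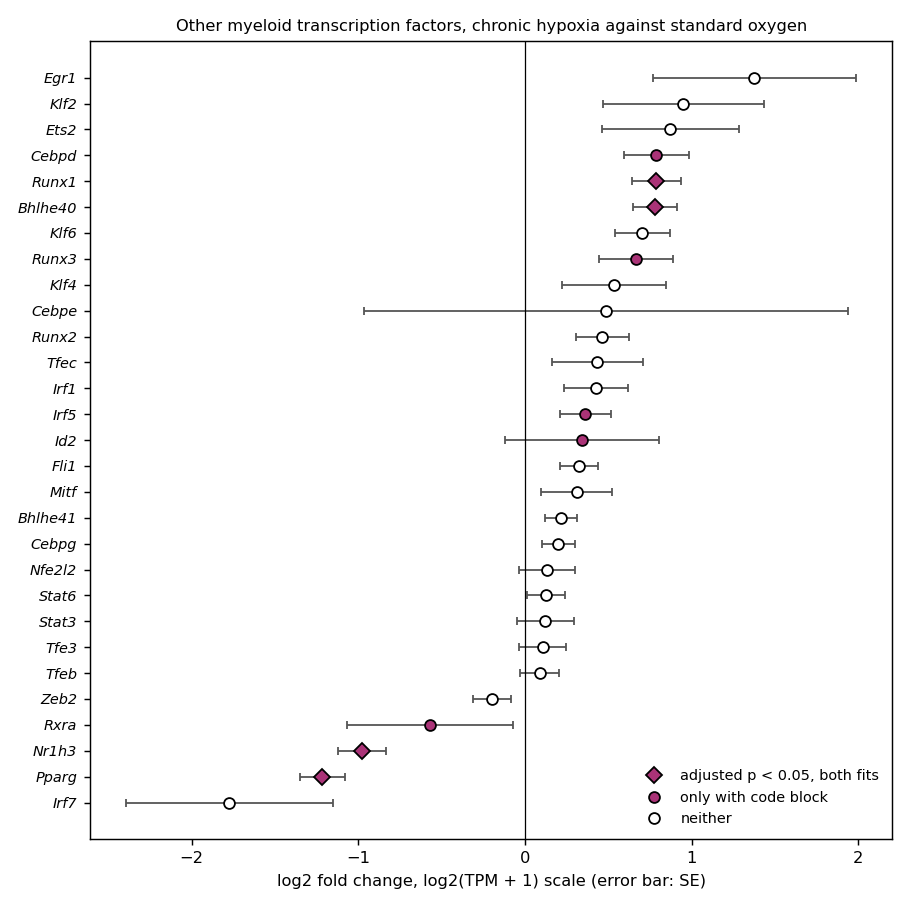
Log2 difference of chronic hypoxia from standard oxygen with SE (horizontal axis) for the 29 other myeloid transcription factors tested, ordered by size. A filled diamond passed in both fits and a filled circle code-blocked only: Pparg and Nr1h3 are the lower diamonds, Runx1 and Bhlhe40 the upper ones, and the outermost symbols at either end are open.

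Likeness of pattern was measured as Pearson's r of log2(TPM + 1) over the 9 libraries, among genes with a mean of at least 10 TPM, and is a description of points that share libraries and codes. The genes most like Csf1r were Eif2ak3 (r = 0.982) and Lcp1 (0.980), and those most like Maf were Marcks (0.988) and Abcc3 (0.986). Cebpa was most like Car5b (0.979) and Cyb5a (0.975), Cebpb most like Pgd (0.979) and Slc7a11 (0.975), and Irf8 most like Etv6 (0.981) and Tgfbr1 (0.946). For Spi1 they were Mpc2 (0.977) and Mgst2 (0.976), for Adgre1 Ifitm3 (0.984) and Gstm2 (0.981), and for Csf2ra Prkcd (0.981) and Ndst1 (0.969). Lyz2 had no gene above 0.842 (Aco1). Among the 9 genes themselves the highest r was that of Spi1 with Cebpb (0.847) and the lowest that of Spi1 with Maf (-0.924), with Csf1r and Cebpa at -0.828.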

How the data were processed

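Messenger RNA libraries of 9 cultures of mouse primary macrophages (3 groups of 3) were sequenced as paired ends of 75 bases, per the labels' protocols. The authors deposited 3 tables of TPM, 1 per pair of groups; FastQC, STAR and featureCounts and the build GRCm38 are named in the submitters' processing notes, without versions, and the step to TPM and the strand setting are not given in the sources used here. Columns sum to 1000000 TPM, and a sample has the same values in both of its tables. Depth is unknown and counting error cannot be given. Symbols were matched for 34582 of 34866 identifiers, with coordinates from GENCODE M21 on the same build.

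Each pair of groups was fitted in limma 3.58.1 (R 4.3.3; lmFit, eBayes with trend, two-sided) on log2(TPM + 1) for genes with a mean of at least 1 TPM, after tests on simulated data. Between samples of the same code, deviations from group means correlated at r = 0.378 to 0.633 in each of the pairs, so the code, from the sample descriptions, was taken to pair samples. Same title numbers gave -0.515 to 0.633. Alternatives were a pseudocount of 0.1 or 5, other filters, no trend, median-of-ratios rescaling, quantile normalization, 1 fit of all samples, blocks, and leaving out each library; the fit without code Z was chosen after seeing the data. The members, lists and alternatives were chosen with earlier results of these data known. The text names all members, the list genes with the largest differences past the threshold (up to 4 per list and comparison, otherwise 2 in the code-blocked fit), and the 2 genes most like each member, unless said to be chosen later. One gene of the transcription factor list is not reported here.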

Additional observations from a re-analysis of the deposited data

Results flagged for a closer look

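Of the 9 genes, 4 differed between acute and chronic hypoxia by the code-blocked test of that difference, where 15.5% of all genes did. They were Csf1r by 0.56 (log2, limma adjusted p 0.0385), Cebpa by -0.63 (0.0143), Cebpb by -0.64 (0.0136) and Maf by 0.83 (0.00969). Code-blocked and rescaled, Csf1r did not pass (limma adjusted p 0.095). None of the 4 passed unblocked (limma adjusted p 0.0654 to 0.528). In acute hypoxia against standard oxygen, Maf went opposite ways in the codes, by -0.617 (log2) in Z and by 0.152 and 0.130 in X and Y. With 1 library per code and group that difference between codes was not tested.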

How the results depend on the processing

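Depth is unknown and counting error cannot be given. All values are from limma. Of 657 values of single genes under alternatives, 545 kept direction and side of the threshold, 18 lost the call, 55 gained it and 39 turned direction. In chronic hypoxia against standard oxygen 298 genes passed, 120 with no filter, 166 without trend, 770 with all 9 samples in 1 fit, 1 with the title number as replicate block and 2039 with the code as replicate block (1674 higher, 365 lower). With the code block the count was 1267 with rescaling (612 higher, 655 lower), 2916 with all 9 samples and 3828 without code Z. In acute hypoxia 3 passed, 5 without trend, 21 rescaled, 23 quantile normalized, 25 with all 9 samples, 0 with the title block (785 at an unadjusted p under 0.05 unblocked) and 78 with the code block, and with that block 54 rescaled, 205 with all 9 samples and 327 without code Z. Between chronic and acute hypoxia 77 passed, 7 with no filter, 25 without trend, 44 quantile normalized, 417 with all 9 samples and 1724 with either block, and with the code block 1086 rescaled, 2464 with all 9 samples and 2751 without code Z. Leaving out 1 library gave 1 to 522, 0 to 33 and 1 to 308 genes in these comparisons, and 1503 to 2023 in place of 2686 for the code term. The cause of these shifts was not tested.

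These log2 differences turned direction. Rescaled, blocked or not, Csf2ra was at -0.018 in chronic hypoxia against standard oxygen, and Csf1r at -0.018 and Spi1 at -0.0039 in acute hypoxia. Quantile normalized, Lyz2 was at 0.29 in chronic hypoxia against standard oxygen, 0.24 against acute hypoxia and 0.21 in the code term, and Spi1 at -0.0042 in acute hypoxia. Without code Z, Cebpa was at 0.016, Maf at 0.14 and Lyz2 at 0.065 in acute hypoxia. Leaving out 1 library gave in acute hypoxia -0.044 to 0.069 for Csf1r, -0.25 to 0.057 for Csf2ra, -0.10 to 0.049 for Adgre1, -0.070 to 0.13 for Spi1, -0.058 to 0.032 for Cebpa, -0.46 to 0.49 for Maf and -0.088 to 0.12 for Lyz2. It gave -0.084 to 0.017 for Lyz2 in chronic hypoxia against standard oxygen, -0.15 to 0.058 against acute hypoxia, and -0.15 to 0.14 for Csf1r in the code term. Cebpa, the one unblocked call, was at an adjusted p of 0.0613 with no filter and 0.0587 without trend. The code block changed the calls given beside their genes and no other of the 9.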

Other observations

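Among the markers listed, S100a8, a calcium-binding protein of neutrophils and monocytes, measured 258 to 1906 TPM, while S100a9, whose protein is its usual partner, was listed at 0 in 8 of the 9 libraries and at 0.23 TPM in the other one. S100a8 fell from standard oxygen to chronic hypoxia code-blocked, by 1.66 on the log2 scale (SE 0.0912; limma adjusted p 0.00567, and 0.073 unblocked). The ratio of Cebpb to Cebpa in TPM was 8.92, 8.65 and 11.9 in standard oxygen (codes X, Y and Z), 9.80, 10.2 and 14.9 in acute hypoxia and 11.5, 9.56 and 13.4 in chronic hypoxia, highest in code Z in each group. Of 8 cell cycle genes, 7 passed the code term, all higher in code Z, where 24.3% of all genes tested passed. From standard oxygen to chronic hypoxia 6 of 8 rose code-blocked by limma's adjusted p, where 15.1% of all genes did, and 5 code-blocked and rescaled. Unblocked 0 of 8 rose, where 2.1% of all genes did. Mki67 was at 1.44 ± 0.0899 (log2, SE; limma adjusted p 0.00689 code-blocked, and 0.0925 unblocked) and Ccna2 at 1.27 ± 0.0877 (0.00689, and 0.0973 unblocked). Against acute hypoxia Mki67 (1.08) and Ccna2 (1.06) rose code-blocked (adjusted p 0.00969 and 0.00748) and S100a8 fell (-1.82, 0.003), with none of the 3 passing unblocked (0.0841 to 0.187). These genes and the ratio, apart from Mki67, Ccna2 and S100a8, were chosen after their values were seen.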
